A study of Homo sapiens with 24 samples.

Results

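The 47 genes described here act in DNA replication or in mitosis, and were taken by symbol from a fixed list. Each matched 1 of the 62703 Ensembl gene identifiers in the count tables. The list was chosen with earlier results of these data known, so shares of members called beside those of all genes are description only. Of the 47 genes, 20 are genes of S phase and 27 are genes of G2 and mitosis. The read counts come from T/C-28a2 cells, an immortalised line of human chondrocytes, in 24 poly(A) RNA-seq libraries. The study asked how the kinase WNK2 shapes the response of chondrocytes to long exposure to hyperosmotic media. The libraries fall into 6 groups of 4. WT Ctr and WT Sor are parental cells in isotonic media and in media with 100 mM sorbitol for 7 days. WNK2 trans Ctr and WNK2 trans Sor are parental cells that received a WNK2 expression plasmid for 48 hours before the same media. WNK2- Ctr and WNK2- Sor are cells with exon 2 of WNK2 deleted by CRISPR/Cas9, without and with 100 mM sorbitol for 7 days. The WNK2- cells were grown from single sorted cells, so that a difference from WT is a difference from a clonal line. The deletion was shown in the cDNA of a named clone, but whether all WNK2- libraries come from it, and whether the WT cells saw the transfection reagent, is not given in the sources used here. In the transfection protocol the serum was lowered for the 7 days of treatment, and all cells were lifted with trypsin before RNA was taken. The libraries of a group are described as biological replicates, with no word on separate cultures or days, and the tests measure the spread between these libraries.

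Total counts ran from 14153002 to 25664619 per library, and the WNK2- libraries were deeper than most others, with medians of 21051909.5 in WNK2- Ctr and 20203563.5 in WNK2- Sor against 16176287.5 in WT Ctr. WNK2 itself, the gene deleted or transfected, was high in the libraries labelled WT Ctr (1217 to 2568 reads) and WNK2 trans Sor (2237 to 3739 reads). It was low in WT Sor (266 to 314 reads) and in the libraries labelled WNK2 trans Ctr (163 to 290 reads), and had 440 to 501 reads in WNK2- Ctr and 322 to 503 reads in WNK2- Sor. Fewer reads of WNK2 were therefore found after WNK2 transfection than without it in isotonic media, against the labels. A gene's count here takes in all its exons, which hides the loss of exon 2. WT Sor, too, had fewer WNK2 reads than either group with exon 2 deleted, whose libraries were deeper. Scaled to a common library size, WT Sor had 282.8 to 319 and WNK2- Ctr 387.9 to 417.3. WNK2- Sor had 311.1 to 419.4 on that scale and overlapped WT Sor. Every direction below that uses libraries labelled WT Ctr, WT Sor or WNK2 trans Ctr depends on labels that these reads put in doubt. Which of these labels is at fault, if any, was not tested. Of 12 chondrocyte markers, SOX9 and CHAD had 0 reads in all 24 libraries and COL9A1 at most 3, whereas HAPLN1 had 258 to 2765. The study also measured SOX9 in these cells by quantitative PCR, and why the counts hold no SOX9 reads was not tested. COL2A1, the collagen that defines cartilage, had 5 to 224 reads. Between the WNK2 trans groups, 5 of the 7 markers with enough reads to be tested were lower and 2 higher in WNK2 trans Sor, against 23.7% lower and 24.3% higher over all genes tested. Of the same 7, 4 were lower in WNK2- Ctr than in WT Ctr and 5 in WNK2- Sor than in WT Sor, and none was higher, against 21.5% and 22.7% lower over all genes. ACAN, the large proteoglycan of cartilage, had mean normalised read counts (reads scaled to a common library size) of 59.7 ± 28.2 (SD, n = 4) in WT Ctr, 112 ± 11.3 (SD, n = 4) in WT Sor, 156 ± 45.2 (SD, n = 4) in WNK2 trans Ctr and 29.9 ± 11.5 (SD, n = 4) in WNK2 trans Sor.

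Cells copy their DNA in S phase and divide it in mitosis. Before S phase the MCM2 to MCM7 ring is loaded onto origins, and CDC45, the GINS complex and MCM10 turn it into the active helicase, after which the polymerases, held by the PCNA clamp, use nucleotides made by ribonucleotide reductase and thymidylate synthase. Many genes of this phase are driven by E2F factors. Genes of mitosis are switched on later, in large part by MYB-MuvB and FOXM1 acting through the CHR element, together with NF-Y at CCAAT boxes, and their products bring the cell into mitosis, build the spindle, hold the checkpoint and split the cell. Adult articular chondrocytes seldom divide, but T/C-28a2 cells grow in culture. In bulk RNA a lower level of these transcripts cannot tell fewer dividing cells from less RNA in each cell.

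Because the S phase and mitotic members came to differ between the groups, stretches upstream of 8 of them are shown, from the RefSeq annotation of GRCh38.p14, each from 125 bases to 1 base before the annotated start, written 5′ to 3′ on the gene's strand. Capitals mark 3 kinds of motif, sought on both strands: the CHR element as TTTGAA or TTCGAA, the CCAAT box, and the E2F site as TTTGGCGC, TTTCCCGC, TTTCGCGC or TTTGCCGC. Matches may overlap each other, also between kinds. The first 4 belong to mitotic genes and the last 4 to S phase genes.
KIF11 (chr10:92593005-92593129, forward strand): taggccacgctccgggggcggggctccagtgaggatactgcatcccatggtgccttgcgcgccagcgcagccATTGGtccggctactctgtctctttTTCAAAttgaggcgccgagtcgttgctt
MKI67 (chr10:128126424-128126548, reverse strand): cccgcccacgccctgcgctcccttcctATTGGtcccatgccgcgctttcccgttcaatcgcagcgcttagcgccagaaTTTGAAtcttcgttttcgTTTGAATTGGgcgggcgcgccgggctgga
CDC20 (chr1:43358856-43358980, forward strand): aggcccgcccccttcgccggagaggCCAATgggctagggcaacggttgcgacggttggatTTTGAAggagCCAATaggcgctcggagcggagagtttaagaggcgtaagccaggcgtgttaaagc
CENPF (chr1:214603070-214603194, forward strand): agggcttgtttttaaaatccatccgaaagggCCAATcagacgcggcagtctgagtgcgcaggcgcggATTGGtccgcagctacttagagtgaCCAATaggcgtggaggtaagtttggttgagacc
MCM6 (chr2:135876444-135876568, reverse strand): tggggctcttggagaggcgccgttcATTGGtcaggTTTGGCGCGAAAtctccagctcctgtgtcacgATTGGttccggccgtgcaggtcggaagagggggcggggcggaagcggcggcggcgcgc
PCNA (chr20:5126623-5126747, reverse strand): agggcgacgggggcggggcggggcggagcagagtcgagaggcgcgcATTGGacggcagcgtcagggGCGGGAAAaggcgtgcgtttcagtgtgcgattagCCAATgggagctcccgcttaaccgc
E2F1 (chr20:33686386-33686510, reverse strand): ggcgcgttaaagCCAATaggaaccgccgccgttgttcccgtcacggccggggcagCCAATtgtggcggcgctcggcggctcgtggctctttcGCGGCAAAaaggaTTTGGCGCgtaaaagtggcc
MCM10 (chr10:13161433-13161557, forward strand): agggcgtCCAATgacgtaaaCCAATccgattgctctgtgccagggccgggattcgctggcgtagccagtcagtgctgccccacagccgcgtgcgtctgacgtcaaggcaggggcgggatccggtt
KIF11 holds a CHR element 28 bases before its start with a CCAAT box 53 bases before it, MKI67 and CDC20 carry both kinds as well, and CENPF shows only CCAAT boxes in this stretch. MCM6 and E2F1 hold E2F sites and PCNA holds 1, flanked by CCAAT boxes, while MCM10 shows CCAAT boxes alone. A promoter of 300 bases (250 before and 50 after the start) was found for 38 members. CHR letters were present in 15 of 21 mitotic promoters (71.4%), 2 of 17 S phase promoters (11.8%) and 16.4% of the 35116 promoters of that length in the annotation. E2F letters stood in 2 of 21 mitotic promoters (9.52%), 12 of 17 S phase promoters (70.6%) and 3.31% of all. The CCAAT box was in 17 mitotic promoters (81%) and 14 S phase promoters (82.4%), against 34.6% of all. These counts describe letters in a window and not binding.

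The members covered a wide range of abundance. On the scale of normalised read counts (reads divided by the effective library size from edgeR's TMM method, times its mean over the 24 libraries) per kilobase of exon, PCNA stood highest in WT Ctr with 13480, followed by UBE2C with 9968 and TPX2 with 3535. The lowest of the measured members were CCNE2 with 109, HMMR with 150 and MCM10 with 172. Of the 47 members, 45 had enough reads to be tested, all 20 of S phase and 25 of mitosis. The other two were NUSAP1 (ENSG00000137804, chromosome 15, 41332694 to 41381050, forward strand), with at most 3 reads in any library, and PRC1 (ENSG00000198901, chromosome 15, 90966038 to 90995629, reverse strand), with at most 5. Both make proteins of the spindle. In GENCODE 29, on GRCh38, 62.2% of the exonic bases of NUSAP1 and 57.6% of those of PRC1 also belong to another gene on the same strand, and those overlapping genes held at most 0 and 32 reads; the part of this overlap in the low counts was not tested. Opposite-strand genes cover 46.6% of the exonic bases of TYMS, 37.1% of CCNE2 and 23.6% of MCM2, and since the strand setting of the counting is not given in the sources used here, reads of such partners may be included.

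**Figure D1:**
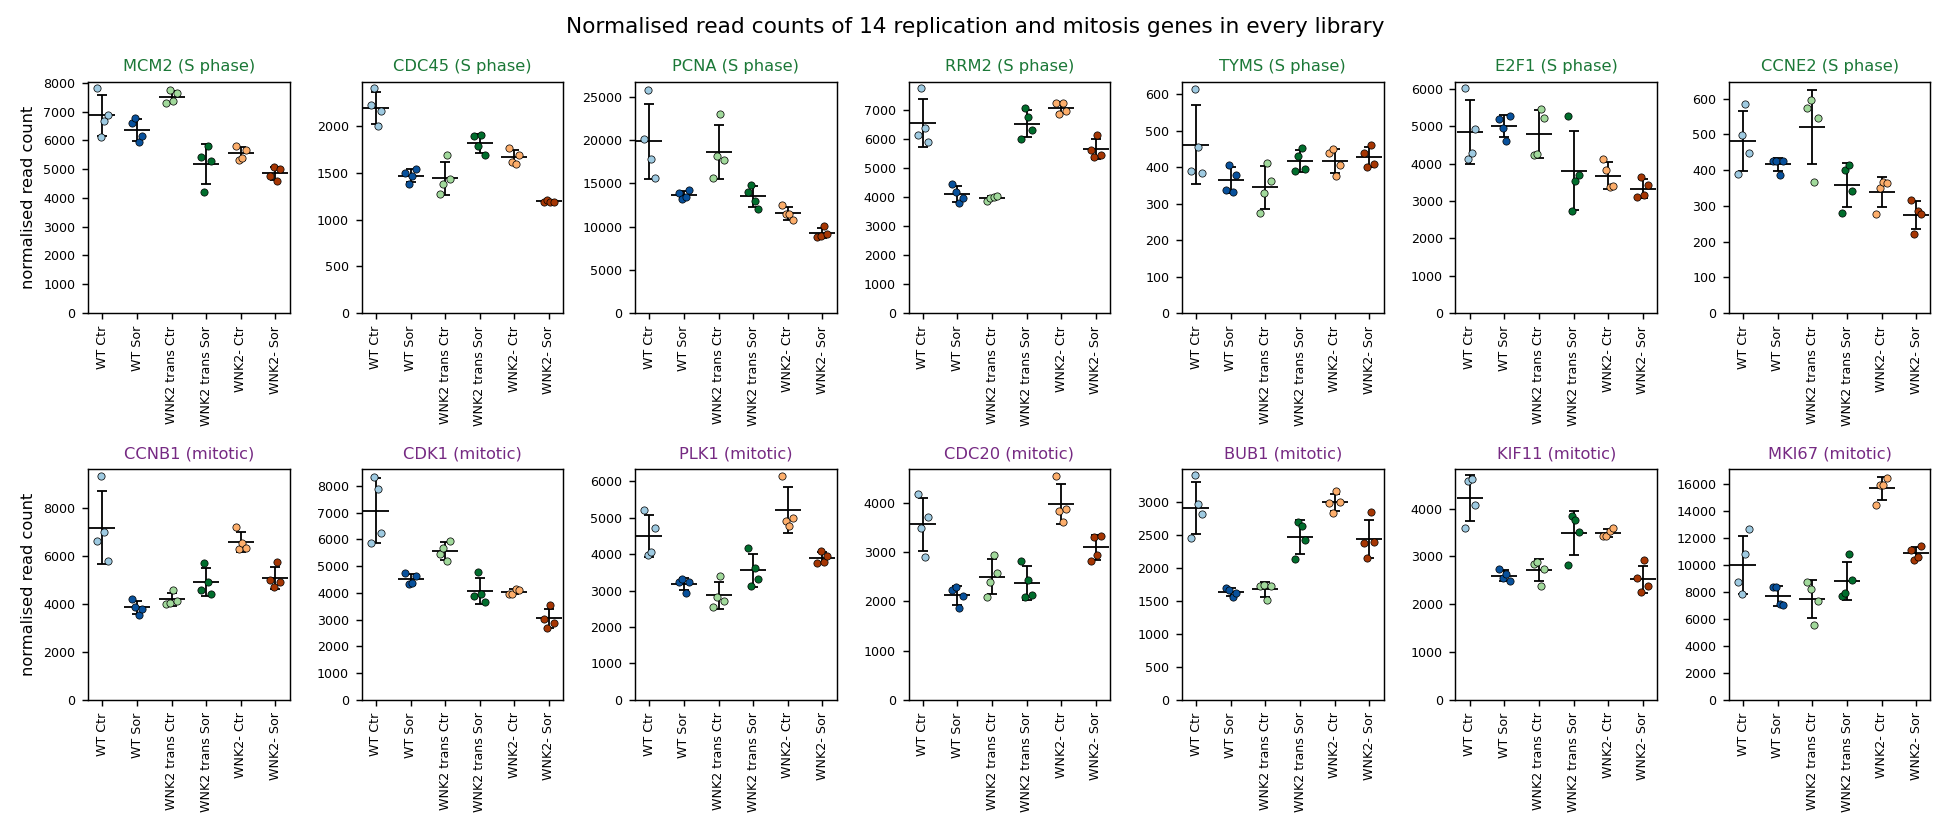
Normalised read counts (y axes, from 0) of 14 members in each library, by group (x axes); points are the 4 libraries of a group, horizontal marks the mean and bars 1 SD. BUB1 stands high in WT Ctr and in the WNK2- groups and low in WT Sor and WNK2 trans Ctr, with the 4 BUB1 values at 2445 to 3396 in WT Ctr and 1555 to 1692 in WT Sor.

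In WT cells, sorbitol was followed by lower levels of mitotic transcripts throughout. All 25 mitotic members tested were called lower in WT Sor than in WT Ctr, with log2 fold changes from -1.20 (CCNB2) to -0.31 (FOXM1) and a median of -0.69, and in 23 of them the libraries of the 2 groups did not overlap. Of the 20 S phase members 13 were called lower and none higher, with a median of -0.36 and a range of -0.87 (GINS2) to 0.05 (E2F1). A call is an adjusted p under 0.05, by the quasi-likelihood test of edgeR and the method of Benjamini and Hochberg over 16600 tested genes. Over all those genes 12.7% were called lower and 11.4% higher, the median was 0.04, and in 12.5% every WT Sor library lay below every WT Ctr library. Of the 38 member calls, 34 held under each of the 32 alternative settings and left-out libraries that were run, and FOXM1, MCM6, MCM7 and MKI67 were lost in at least 1.

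Among the cyclins and kinases that bring cells into mitosis, all 7 fell. CCNB1 (cyclin B1; ENSG00000134057, chromosome 5, 69167010 to 69178245, forward strand) had 6616, 9318, 6973 and 5773 in WT Ctr and 4211, 3872, 3549 and 3792 in WT Sor, all in normalised read counts, as are the library values that follow, while values given with a standard error (SE) are log2 fold changes or, for the interactions, differences between them. The means were 7170 ± 1518 (SD, n = 4) in WT Ctr and 3856 ± 273 (SD, n = 4) in WT Sor. Every WT Sor library lay below every WT Ctr library, with a log2 fold change of -0.90 (SE 0.11, edgeR adjusted p = 3.43e-06). CDK1 (ENSG00000170312, chromosome 10, 60778331 to 60794852, forward strand), the kinase that cyclin B1 activates, had 5860, 8344, 7877 and 6230 in WT Ctr and 4735, 4322, 4354 and 4638 in WT Sor, again without overlap, a change of -0.65 (SE 0.10, edgeR adjusted p = 8.29e-05). PLK1 (ENSG00000166851, chromosome 16, 23677656 to 23690367, forward strand), a kinase of mitotic entry and spindle assembly, had 5226, 3978, 4068 and 4723 in WT Ctr and 3229, 3307, 2944 and 3229 in WT Sor, also apart, with a value of -0.50 (SE 0.11, edgeR adjusted p = 0.00138). CCNA2 (cyclin A2), which acts in S phase and G2, was among the 3 smallest p of this comparison, with 3527, 3782, 4198 and 3867 in WT Ctr and 2026, 1983, 1916 and 1973 in WT Sor. All 4 WT Sor libraries were far below the WT Ctr libraries, and the log2 fold change was -0.96 (SE 0.09, edgeR adjusted p = 6.33e-08). FOXM1, a transcription factor of the mitotic programme, showed the smallest change of the role, -0.31 (SE 0.10, edgeR adjusted p = 0.0245); without WT Ctr replicate 4 its adjusted p was 0.106, and the call was also lost without WT Ctr replicate 1, WT Sor replicate 3 or WT Sor replicate 4, with no filter on low counts or with only the compared groups in the fit.

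Genes of the spindle, the kinetochore and the exit from mitosis fell alongside. KIF11 (ENSG00000138160, chromosome 10, 92593286 to 92655395, forward strand), the motor that pushes the spindle poles apart, had 3591, 4574, 4627 and 4070 in WT Ctr and 2733, 2553, 2621 and 2478 in WT Sor, a change of -0.70 (SE 0.10, edgeR adjusted p = 2.01e-05). The motor KIF20A, of cytokinesis, had 3580, 3480, 3543 and 3282 in WT Ctr and 2244, 2082, 1918 and 2142 in WT Sor, and changed by -0.73 (SE 0.07, edgeR adjusted p = 1.69e-07). DLGAP5, a spindle microtubule protein, had 3968, 5112, 4752 and 4028 in WT Ctr and 2325, 2162, 2119 and 2257 in WT Sor; its change of -1.01 (SE 0.10, edgeR adjusted p = 9.85e-08) was the largest in the spindle group. In these 3 genes the groups stood fully apart. BUB1 (ENSG00000169679, chromosome 2, 110637698 to 110678114, reverse strand), a checkpoint kinase at the kinetochore, had 2445, 3396, 2963 and 2806 in WT Ctr and 1692, 1657, 1555 and 1617 in WT Sor, and its log2 fold change was -0.83 (SE 0.10, edgeR adjusted p = 1.49e-06). CDC20 (ENSG00000117399, chromosome 1, 43358955 to 43363203, forward strand), the activator of the anaphase-promoting complex, had 4183, 3495, 2894 and 3709 in WT Ctr and 2234, 2284, 1862 and 2109 in WT Sor, a change of -0.75 (SE 0.12, edgeR adjusted p = 7.56e-05). MKI67 (ENSG00000148773, chromosome 10, 128096659 to 128126385, reverse strand), the Ki-67 antigen used to mark dividing cells, showed wide spread in WT Ctr and its groups overlapped, with 8758, 7876, 10815 and 12677 in WT Ctr and 8352, 8369, 7108 and 7007 in WT Sor. Its change of -0.38 (SE 0.14, edgeR adjusted p = 0.0433) was called in the fit of 24 libraries but not in 18 of the 32 alternatives, among them those without WT Ctr replicate 4 (-0.25, adjusted p = 0.181), WT Ctr replicate 3 or any 1 of the WT Sor libraries.

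In helicase loading and firing 8 of 10 S phase members fell. Which S phase members were called depended on the GC and length correction, with which 19 of 20 were lower and the median was -0.46. The firing factor CDC45 (ENSG00000093009, chromosome 22, 19479459 to 19520612, forward strand) had 2226, 2412, 2003 and 2162 in WT Ctr and 1497, 1379, 1467 and 1546 in WT Sor, with no overlap and a change of -0.58 (SE 0.08, edgeR adjusted p = 1.75e-05). MCM2 (ENSG00000073111, chromosome 3, 127598223 to 127622436, forward strand), a subunit of the loaded ring, had 7840, 6131, 6664 and 6870 in WT Ctr and 6594, 6773, 5936 and 6149 in WT Sor. The MCM2 groups overlapped, and the difference of -0.11 (SE 0.09, edgeR adjusted p = 0.381) was not called; after the correction for GC content and length it was -0.27 with an adjusted p of 0.00513. MCM10 at -0.72, GINS1 at -0.75 and GINS2 at -0.87 fell further than the ring subunits MCM3 to MCM7, whose values ran from -0.43 (MCM3) to -0.29 (MCM5, not called). Of the polymerases and clamp, PCNA (ENSG00000132646, chromosome 20, 5114953 to 5126626, reverse strand) had 20085, 25809, 17855 and 15587 in WT Ctr and 13882, 13231, 13433 and 14179 in WT Sor, a change of -0.54 (SE 0.12, edgeR adjusted p = 0.00202), and the polymerase subunits POLA1 (-0.13, adjusted p = 0.364) and POLE (-0.08, adjusted p = 0.461) were not called by edgeR.

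The enzymes of nucleotide supply fell in 3 of 4 cases. RRM2 (ENSG00000171848, chromosome 2, 10120698 to 10131419, forward strand), the regulated subunit of ribonucleotide reductase, had 6152, 7773, 6405 and 5923 in WT Ctr and 4450, 4171, 3797 and 3983 in WT Sor, a change of -0.68 (SE 0.08, edgeR adjusted p = 1.83e-06) with the groups apart. TYMS (ENSG00000176890, chromosome 18, 657604 to 673578, forward strand), thymidylate synthase, had 391, 616, 456 and 385 in WT Ctr and 338, 407, 332 and 379 in WT Sor. These overlapped and -0.35 (SE 0.14, edgeR adjusted p = 0.0635) was not called, but it passed after the GC and length correction (-0.42, adjusted p = 0.00793), with DESeq2, or without WT Ctr replicate 1 or 4 or WNK2 trans Ctr replicate 3. In G1/S control, the transcription factor E2F1 (ENSG00000101412, chromosome 20, 33675683 to 33686404, reverse strand) had 6012, 4122, 4283 and 4930 in WT Ctr and 5185, 4958, 4608 and 5264 in WT Sor. Its value of 0.05 (SE 0.14, edgeR adjusted p = 0.843) was the only one above 0 among the 45 members, and it turned to -0.23 (adjusted p = 0.00367) after the GC and length correction. CCNE2 (cyclin E2; ENSG00000175305) had 388, 499, 586 and 449 in WT Ctr and 426, 425, 388 and 426 in WT Sor, and -0.21 (SE 0.15, edgeR adjusted p = 0.348) was not called. UHRF1, which carries DNA methylation through replication, fell by 0.37 on the log2 scale.

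**Figure D2:**
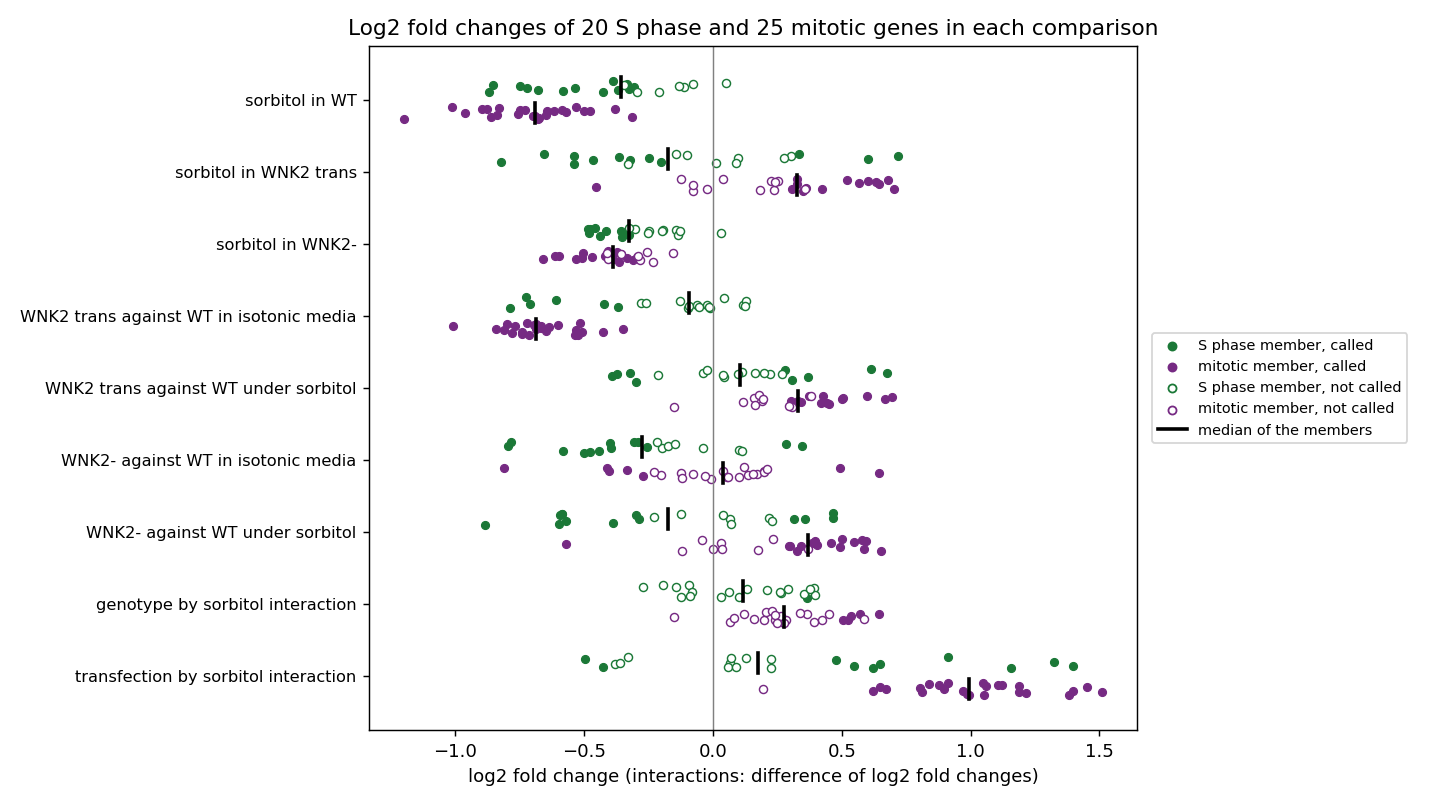
Log2 fold change (x axis) of each S phase member (green) and mitotic member (purple) in each comparison (y axis); filled points were called by edgeR, open ones not, and black bars are medians of the members. The mitotic genes lie left of 0 for sorbitol in WT (median -0.69) and for WNK2 trans against WT in isotonic media (median -0.69), and right of 0 in the transfection by sorbitol interaction (median 0.99).

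In the transfected cells sorbitol went with the opposite shift in mitotic genes and a split among the genes of S phase. Of the 25 mitotic members, 13 were called higher and 1 lower in WNK2 trans Sor than in WNK2 trans Ctr, with a median of 0.32 and a range of -0.45 (CDK1) to 0.70 (ANLN). The libraries stood apart in 7 mitotic members that were higher and in 1 that was lower, 32% in all, against 34.4% of all tested genes. Of the 20 S phase members 3 were called higher and 9 lower, with a median of -0.17. Over all genes 24.3% were called higher and 23.7% lower, with a median of 0.01. In this fit the S phase share of higher calls was 15% and the mitotic share 52%. Neither was tested against the share of all genes, and that of S phase rests on 3 genes. The split of the 45 members into 16 higher and 10 lower became 20 higher and 7 lower with upper-quartile factors, and 14 higher and 14 lower after the GC and length correction, where the mitotic members counted 10 higher and 4 lower with a median of 0.12. The 3 higher S phase calls were 5 with upper-quartile factors or without WNK2 trans Ctr replicate 3, and over the fits without 1 library the lower ones numbered 6 to 10. Of the 26 calls 18 held under all 32 alternatives, and those of CENPF, KIF2C, PLK1, TPX2, UBE2C, GINS2, MCM4 and MCM7 did not. The direction was drawn from the libraries labelled WNK2 trans Ctr, whose WNK2 reads go against that label.

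AURKA, the kinase of spindle poles, was the mitotic member with the smallest p, with 4051, 4028, 4485 and 4390 in WNK2 trans Ctr and 5964, 6376, 5993 and 5965 in WNK2 trans Sor. The groups stood far apart and the log2 fold change was 0.52 (SE 0.07, edgeR adjusted p = 7.16e-07). BUB1 had 1719, 1734, 1505 and 1718 in WNK2 trans Ctr and 2126, 2695, 2632 and 2424 in WNK2 trans Sor, again apart, with 0.57 (SE 0.10, edgeR adjusted p = 4.4e-05). KIF11 had 2847, 2882, 2382 and 2741 in WNK2 trans Ctr and 2819, 3845, 3762 and 3519 in WNK2 trans Sor, where the lowest WNK2 trans Sor library reached into the WNK2 trans Ctr range; the change was 0.36 (SE 0.10, edgeR adjusted p = 0.00454). After the GC and length correction these 3 values were smaller but still called, at 0.28 for AURKA, 0.33 for BUB1 and 0.16 for KIF11 (adjusted p = 0.0124). PLK1 had 2537, 2837, 3403 and 2721 in WNK2 trans Ctr and 4161, 3115, 3635 and 3330 in WNK2 trans Sor, 0.31 (SE 0.11, edgeR adjusted p = 0.0202), with overlapping groups, and lost its call without WNK2 trans Sor replicate 1 (0.23, adjusted p = 0.0833), without WNK2 trans Ctr replicate 1 or 4, or with only the compared groups, while the GC and length correction raised it to 0.50. CCNB1 had 3998, 4027, 4578 and 4115 in WNK2 trans Ctr and 4582, 5694, 4904 and 4384 in WNK2 trans Sor, overlapping, with 0.23 (SE 0.11, edgeR adjusted p = 0.0978). CDC20 showed 2092, 2390, 2939 and 2579 in WNK2 trans Ctr and 2831, 2081, 2438 and 2123 in WNK2 trans Sor, a value of -0.08 (SE 0.12, edgeR adjusted p = 0.612). MKI67 had 8770, 8211, 5560 and 7300 in WNK2 trans Ctr and 7664, 7930, 10799 and 8855 in WNK2 trans Sor, a value of 0.24 (SE 0.14, edgeR adjusted p = 0.149). These 3 genes were not called, although CCNB1 passed with upper-quartile factors (0.30, adjusted p = 0.0345) and without WT Ctr replicate 2. CDK1 was the 1 mitotic member that fell, with 5447, 5679, 5177 and 5948 in WNK2 trans Ctr and 3896, 4760, 3937 and 3651 in WNK2 trans Sor. All 4 WNK2 trans Sor libraries were below the WNK2 trans Ctr libraries, and the fall was -0.45 (SE 0.10, edgeR adjusted p = 0.000944).

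Among the S phase members, RRM2, MCM10 and CDC45 were the 3 that rose. RRM2 had 3874, 3989, 4002 and 4033 in WNK2 trans Ctr and 6002, 7090, 6760 and 6340 in WNK2 trans Sor, 0.72 (SE 0.08, edgeR adjusted p = 8.73e-08). MCM10, which helps the helicase to start, had 577, 569, 516 and 631 in WNK2 trans Ctr and 772, 955, 864 and 892 in WNK2 trans Sor, 0.60 (SE 0.08, edgeR adjusted p = 1.13e-06). CDC45 had 1273, 1381, 1690 and 1436 in WNK2 trans Ctr and 1900, 1786, 1906 and 1689 in WNK2 trans Sor, where 1 library of each group met, and rose by 0.33 (SE 0.08, edgeR adjusted p = 0.00184). The ring of the helicase fell. MCM6 had 4386, 5101, 5024 and 4550 in WNK2 trans Ctr and 2278, 3164, 2710 and 2628 in WNK2 trans Sor, the largest fall of any member, -0.82 (SE 0.11, edgeR adjusted p = 1.63e-06). MCM2 had 7318, 7753, 7358 and 7656 in WNK2 trans Ctr and 5408, 4201, 5804 and 5294 in WNK2 trans Sor, -0.54 (SE 0.09, edgeR adjusted p = 1.85e-05), and MCM5 had 4688, 5149, 6547 and 5363 in WNK2 trans Ctr and 4339, 2718, 3365 and 3392 in WNK2 trans Sor, -0.66 (SE 0.12, edgeR adjusted p = 8.51e-05). For these 3 ring subunits, every WNK2 trans Sor library was below every WNK2 trans Ctr library. All 6 ring subunits were called lower, least so MCM4 at -0.20, so that within the 10 genes of helicase loading and firing 2 rose, 7 fell and GINS1 was not called. The GC and length correction left MCM10 at 0.37 and MCM2 at -0.30, both still called.

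PCNA fell, with 15606, 18134, 23030 and 17690 in WNK2 trans Ctr and 14005, 14855, 13003 and 12052 in WNK2 trans Sor and a change of -0.47 (SE 0.12, edgeR adjusted p = 0.00247), or -0.90 after the GC and length correction. CCNE2 had 573, 596, 367 and 547 in WNK2 trans Ctr and 280.4, 400.5, 413 and 341 in WNK2 trans Sor, overlapping through 1 low WNK2 trans Ctr library, a fall with a log2 fold change of -0.54 (SE 0.15, edgeR adjusted p = 0.00575). E2F1 had 4231, 4245, 5472 and 5233 in WNK2 trans Ctr and 5284, 2739, 3524 and 3708 in WNK2 trans Sor, and its -0.33 (SE 0.14, edgeR adjusted p = 0.0622) was not called; without WNK2 trans Sor replicate 1, the library with the highest E2F1 value of its group, it was -0.53 with an adjusted p of 0.00131, and it also passed without WNK2 trans Ctr replicate 1 or 2 or WT Ctr replicate 1 and with the replicate block (-0.36, adjusted p = 0.0392). TYMS had 274, 329, 413 and 363 in WNK2 trans Ctr and 389, 432, 453 and 394 in WNK2 trans Sor, 0.28 (SE 0.14, edgeR adjusted p = 0.0958), which passed without WNK2 trans Ctr replicate 3 (0.37, adjusted p = 0.0346), without WT Ctr replicate 2 or with upper-quartile factors.

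**Figure D3:**
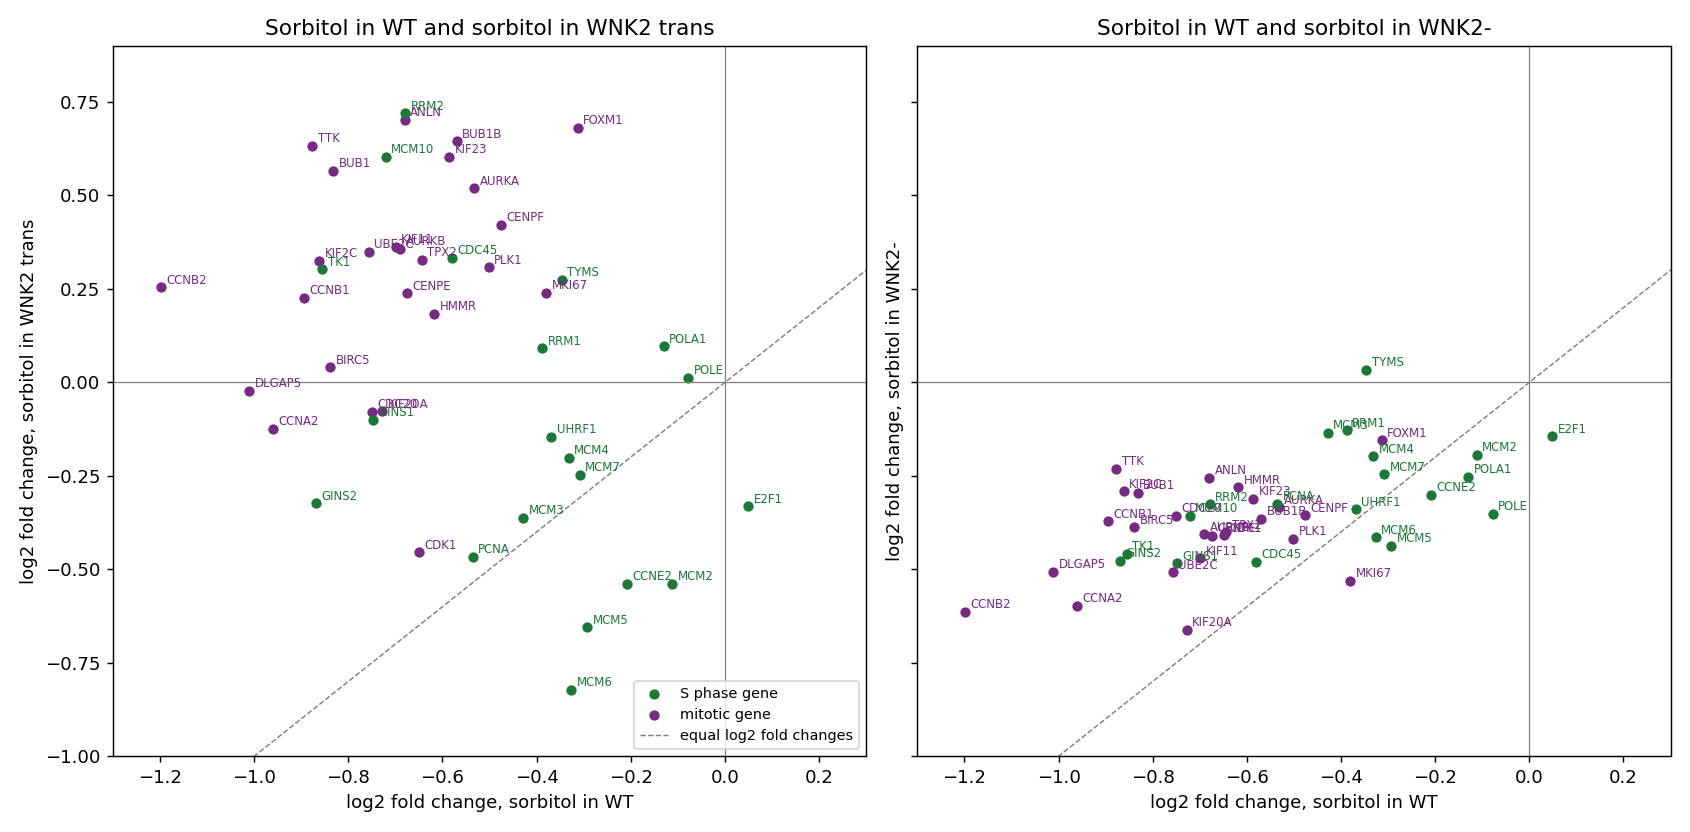
Log2 fold change with sorbitol in WT (x axes) against that in WNK2 trans (left) and in WNK2- (right) for 45 members, S phase genes in green and mitotic genes in purple; the dashed line marks equal values. On the left mitotic genes sit left of 0 and mostly above it, while MCM6 (-0.33 and -0.82), MCM2 and CCNE2 lie below the line; on the right all but TYMS and E2F1 are below 0 on both axes.

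In WNK2- cells sorbitol was again followed by lower levels, in a narrower range. Of the 25 mitotic members 17 were called lower and none higher in WNK2- Sor than in WNK2- Ctr, with a median of -0.39 and a range of -0.66 (KIF20A) to -0.15 (FOXM1), and of the 20 S phase members 10 were called lower and none higher, with a median of -0.33. With the GC and length correction 16 S phase members were lower. Over all genes 6.64% were lower and 8.25% higher, with a median of 0.01. In 36 of the 45 members (80%) every WNK2- Sor library lay below every WNK2- Ctr library, against 13.8% of all genes. Of these 27 calls 20 held under all alternatives, and those of BIRC5, BUB1, CCNB1, CDC20, KIF23, MCM5 and TK1 did not.

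CCNA2 had 3142, 2952, 3103 and 2997 in WNK2- Ctr and 1982, 1847, 2241 and 1995 in WNK2- Sor, -0.60 (SE 0.09, edgeR adjusted p = 4.3e-05). KIF20A had 3552, 3469, 3268 and 3297 in WNK2- Ctr and 2063, 2072, 2291 and 2166 in WNK2- Sor, -0.66 (SE 0.07, edgeR adjusted p = 4.67e-07). CDC45 had 1767, 1621, 1598 and 1694 in WNK2- Ctr and 1190, 1217, 1188 and 1195 in WNK2- Sor, -0.48 (SE 0.08, edgeR adjusted p = 0.000177). These 3 had the smallest p here and the groups of each were well apart. CCNB1 had 7186, 6272, 6522 and 6312 in WNK2- Ctr and 4968, 4696, 5737 and 4914 in WNK2- Sor, -0.37 (SE 0.11, edgeR adjusted p = 0.0238), a call lost with upper-quartile factors or without WNK2- Ctr replicate 1 or WNK2- Sor replicate 1, 2 or 4. CDK1 had 3943, 3960, 4139 and 4108 in WNK2- Ctr and 3020, 2702, 3557 and 2889 in WNK2- Sor, -0.41 (SE 0.10, edgeR adjusted p = 0.00819). PLK1 had 6158, 4926, 4764 and 5000 in WNK2- Ctr and 3762, 4089, 3787 and 3961 in WNK2- Sor, -0.42 (SE 0.11, edgeR adjusted p = 0.00784). Both kinases fell without overlap. KIF11 had 3415, 3423, 3535 and 3596 in WNK2- Ctr and 2545, 2252, 2913 and 2370 in WNK2- Sor, -0.47 (SE 0.10, edgeR adjusted p = 0.00169). MKI67 had 14446, 15931, 15918 and 16483 in WNK2- Ctr and 11082, 10356, 10606 and 11402 in WNK2- Sor, -0.53 (SE 0.14, edgeR adjusted p = 0.00798). In this pair the MKI67 libraries did stand apart. CDC20 had 4557, 3834, 3620 and 3890 in WNK2- Ctr and 2828, 3306, 2952 and 3329 in WNK2- Sor, -0.36 (SE 0.12, edgeR adjusted p = 0.0436). BUB1 had 2979, 2823, 3152 and 2992 in WNK2- Ctr and 2375, 2142, 2837 and 2386 in WNK2- Sor, with 1 library of each group meeting, and -0.29 (SE 0.10, edgeR adjusted p = 0.0421). The calls of CDC20 and BUB1 were near the threshold. Both were lost without WNK2- Ctr replicate 1, 2 or 4, WNK2- Sor replicate 1, 2 or 4 or WNK2 trans Ctr replicate 4, with the replicate block and with upper-quartile factors. CDC20 was also lost without WNK2- Sor replicate 3 or WNK2 trans Ctr replicate 2 and after thinning to the smallest total, and BUB1 also without WNK2- Ctr replicate 3 and with no filter on low counts.

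RRM2 had 7242, 6894, 7265 and 6981 in WNK2- Ctr and 5629, 5386, 6157 and 5476 in WNK2- Sor, a change of -0.33 (SE 0.08, edgeR adjusted p = 0.00668). PCNA had 12522, 11421, 11411 and 10773 in WNK2- Ctr and 8791, 8888, 10063 and 9094 in WNK2- Sor; the groups did not overlap, but -0.32 (SE 0.12, edgeR adjusted p = 0.0704) was not called unless only the compared groups were fitted (-0.33, adjusted p = 0.00143), WNK2 trans Ctr replicate 3 or WT Ctr replicate 2 or 4 was left out, or GC and length were corrected (-0.55, adjusted p = 2.93e-04). No WNK2- Sor library of PCNA reached a WNK2- Ctr library. MCM2 had 5820, 5332, 5407 and 5683 in WNK2- Ctr and 4753, 5091, 4602 and 5015 in WNK2- Sor, -0.19 (SE 0.09, edgeR adjusted p = 0.155), called only in the fit of the compared groups (-0.20, adjusted p = 0.0292). These 2 genes of the replication fork were thus lower in every WNK2- Sor library without passing the threshold of the joint fit. E2F1 had 4132, 3832, 3366 and 3391 in WNK2- Ctr and 3107, 3641, 3159 and 3415 in WNK2- Sor, -0.14 (SE 0.14, edgeR adjusted p = 0.578). CCNE2 had 277, 349, 368 and 363 in WNK2- Ctr and 316, 222, 285 and 279 in WNK2- Sor, -0.30 (SE 0.15, edgeR adjusted p = 0.218). TYMS had 439, 449, 377 and 406 in WNK2- Ctr and 438, 400.2, 459.8 and 409 in WNK2- Sor, 0.03 (SE 0.13, edgeR adjusted p = 0.911). The groups of these 3 overlapped, and CCNE2 alone of them was called after the GC and length correction (-0.42, adjusted p = 0.00421).

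The transfected cells also differed from WT cells within each medium. In isotonic media all 25 mitotic members were called lower in WNK2 trans Ctr than in WT Ctr, with a median of -0.69 and a range of -1.01 (CCNB2) to -0.35 (CDK1), while 6 of the 20 S phase members were called lower and none higher, with a median of -0.09. Over all genes 6.98% were lower and 5.57% higher. This comparison and that of sorbitol in WT share the WT Ctr libraries. The 6 lower S phase calls were 10 with the GC and length correction. With only the compared groups in the fit the member calls went from 31 to 22, and the mitotic calls of CDC20, CDK1, CENPE, CENPF, HMMR, MKI67 and UBE2C were lost in at least 1 alternative. WNK2 reads, too, were fewer in WNK2 trans Ctr. AURKA (7477, 7399, 6512 and 6576 in WT Ctr, and 4028 to 4485 in WNK2 trans Ctr) changed by -0.72 (SE 0.07, edgeR adjusted p = 3.69e-08). TPX2, which activates AURKA on the spindle, had 12146, 14306, 12837 and 11679 in WT Ctr and 7854, 8141, 8277 and 7815 in WNK2 trans Ctr, -0.67 (SE 0.07, edgeR adjusted p = 6.87e-07). RRM2, with 5923 to 7773 in WT Ctr and 3874 to 4033 in WNK2 trans Ctr, changed by -0.72 (SE 0.08, edgeR adjusted p = 7.37e-07). Each of these 3 was apart between the groups. The S phase members called lower were RRM2, MCM10, CDC45, TK1, TYMS and GINS1, with values from -0.79 (TK1) to -0.37 (GINS1). GINS1 was not called with only the compared groups in the fit (-0.38, adjusted p = 0.138). For TYMS, -0.42 (SE 0.14, edgeR adjusted p = 0.0397), the call was lost in that fit, with no filter on low counts, or without WT Ctr replicate 2 (-0.25, adjusted p = 0.231), WT Ctr replicate 3 or WNK2 trans Ctr replicate 1, 2 or 4. MCM2 (0.13, adjusted p = 0.367), MCM6 (0.12, adjusted p = 0.523), CCNE2 (0.12, adjusted p = 0.678), E2F1 (-0.01, adjusted p = 0.973) and PCNA (-0.09, adjusted p = 0.675) were not called by edgeR.

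Under sorbitol the order turned. Of the mitotic members 14 were called higher and none lower in WNK2 trans Sor than in WT Sor, with a median of 0.33, and of the S phase members 5 were called higher and 4 lower, with a median of 0.11, against 16.1% higher and 15.5% lower over all genes. Over the fits without 1 library the mitotic members counted 10 to 16 higher, and those of S phase 4 to 6 higher and 1 to 4 lower. The 4 lower S phase calls were 1 without WNK2 trans Sor replicate 2, and 2 without WNK2 trans Sor replicate 3 or 4, without WT Sor replicate 1, 2 or 4, with only the compared groups, with upper-quartile factors or with the GC and length correction. Of all these calls, 10 of 14 mitotic and 4 of 9 S phase ones held under every alternative, and that of MCM5 (-0.32, adjusted p = 0.045) was not among them. BUB1 (1555 to 1692 in WT Sor, 2126 to 2695 in WNK2 trans Sor) was higher by 0.60 (SE 0.10, edgeR adjusted p = 4.72e-05), RRM2 (3797 to 4450 in WT Sor, 6002 to 7090 in WNK2 trans Sor) by 0.68 (SE 0.08, edgeR adjusted p = 6.49e-07) and MCM10 (552 to 587 in WT Sor, 772 to 955 in WNK2 trans Sor) by 0.61 (SE 0.08, edgeR adjusted p = 2.13e-06). All 3 were apart. The lower calls with the smallest p were MCM6 (3400 to 3604 in WT Sor, 2278 to 3164 in WNK2 trans Sor) at -0.37 (SE 0.11, edgeR adjusted p = 0.0129), MCM2 (5936 to 6773 in WT Sor, 4201 to 5804 in WNK2 trans Sor) at -0.30 (SE 0.09, edgeR adjusted p = 0.0115) and E2F1 (4608 to 5264 in WT Sor, 2739 to 5284 in WNK2 trans Sor) at -0.39 (SE 0.14, edgeR adjusted p = 0.0411). The MCM2 call was lost after the GC and length correction (-0.03, adjusted p = 0.790) and without WNK2 trans Sor replicate 2. The E2F1 groups overlapped, its call was lost without WNK2 trans Sor replicate 2, 3 or 4 or WT Sor replicate 1, 2 or 4, with upper-quartile factors and with only the compared groups, and after the GC and length correction its value was 0.04 (adjusted p = 0.646).

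Because the WNK2 reads were high in WT Ctr and WNK2 trans Sor and low in WT Sor and WNK2 trans Ctr, 2 more comparisons were added after those reads had been seen. Between WT Sor and WNK2 trans Ctr, the 2 groups with few WNK2 reads, 1 of 25 mitotic members was called higher (FOXM1, 0.38, adjusted p = 0.0105) and 1 lower (CCNA2, -0.29, adjusted p = 0.03), with a median of -0.06, and 7 of 20 S phase members were lower, led by GINS2 (-0.59, adjusted p = 0.0011), against 8.74% higher and 6.31% lower over all genes. Of these 9 calls 6 held under every alternative, and that of CCNA2 was lost without WNK2 trans Ctr replicate 2 (-0.20, adjusted p = 0.163), without any 1 of the WT Sor libraries, with no filter on low counts and with upper-quartile factors. With upper-quartile factors the split of all members was 2 higher and 6 lower in place of 1 and 8. With the GC and length correction the 9 member calls became 22, of which 8 mitotic and 13 S phase members were lower. Between WNK2 trans Sor and WT Ctr, the groups with many WNK2 reads, 13 mitotic and 13 S phase members were lower in WNK2 trans Sor and none was higher, with medians of -0.33 and -0.34, against 19.5% lower and 19.8% higher over all genes. KIF20A (-0.61, adjusted p = 5.63e-07), DLGAP5 (-0.83, adjusted p = 4.3e-07) and CCNA2 (-0.79, adjusted p = 2.82e-07) had the smallest p of those by edgeR. The 26 calls became 43 with the GC and length correction and 14 with only the compared groups, and 8 of 13 mitotic and 6 of 13 S phase calls held under every alternative. Taken as a geometric mean over the 25 mitotic members, the normalised read count lay at 3820 to 4200 for WT Ctr, 2858 to 3300 for WNK2 trans Sor, 2355 to 2601 for WT Sor and 2409 to 2652 for WNK2 trans Ctr. The mitotic level of the first 2 groups was thus above that of the other two in every library, as were the WNK2 reads. In WNK2- cells the same mean lay at 3928 to 4134 for WNK2- Ctr and 2871 to 3301 for WNK2- Sor, also above WT Sor and WNK2 trans Ctr, although WNK2 reads were few there, and the part of WNK2 in the difference was not tested. For the 20 S phase members it lay at 3603 to 4190 for WT Ctr, 3124 to 3555 for WNK2 trans Ctr, 3040 to 3167 for WNK2 trans Sor and 2790 to 2988 for WT Sor.

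**Figure D4:**
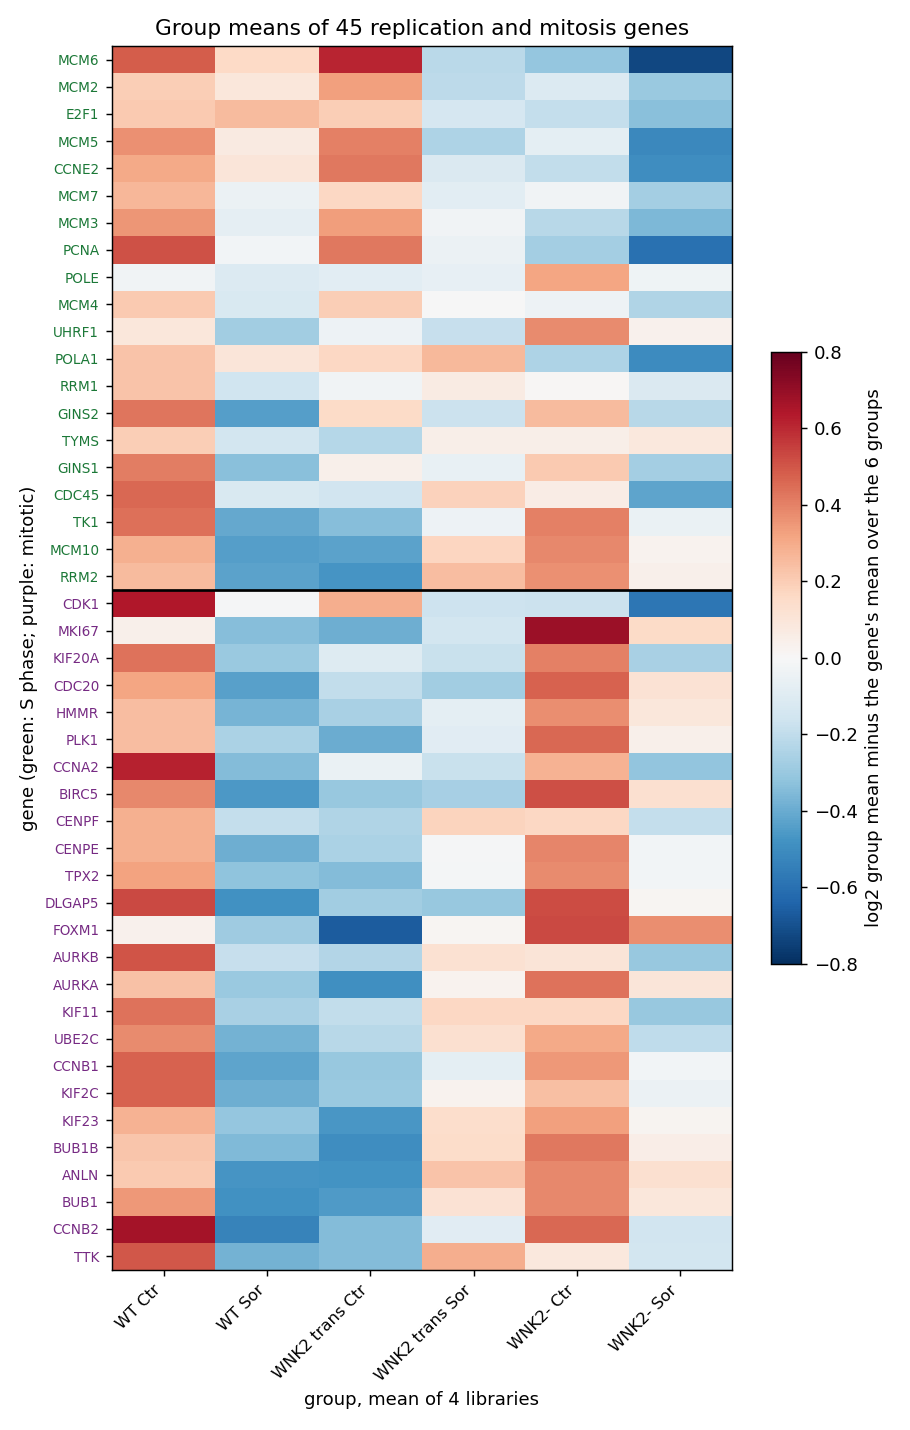
Group means of 45 members (rows; S phase above the black line, mitotic below, each ordered by the transfection by sorbitol interaction) in the 6 groups (columns), as the log2 mean minus the gene's average over the groups (colour scale in log2 units). WT Ctr and WNK2- Ctr are mostly red and WT Sor and WNK2 trans Ctr mostly blue among mitotic genes, while MCM6, MCM2, MCM5 and CCNE2 at the top are red in WNK2 trans Ctr.

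Between WNK2- and WT cells members were called in both directions. In isotonic media 3 mitotic members were called higher and 5 lower in WNK2- Ctr than in WT Ctr, with a median of 0.04, and 2 S phase members were higher and 11 lower, with a median of -0.27, against 20.7% higher and 21.5% lower over all genes. The mitotic shares, 12% higher and 20% lower, were thus no larger than those of all genes, while those of S phase were 10% and 55%. The libraries stood apart in 24% of mitotic members, against 36.9% of all genes. The 5 lower mitotic calls were 3 without WNK2- Ctr replicate 2, 3 or 4, without WT Ctr replicate 2 or 3 or with only the compared groups, the 3 higher ones were 7 with the GC and length correction, and 4 of 8 mitotic and 8 of 13 S phase calls held under every alternative, those of AURKA, AURKB, KIF11 and TTK not among them. Under sorbitol 16 mitotic members were higher and 1 lower in WNK2- Sor than in WT Sor, with a median of 0.37, and 4 S phase members were higher and 9 lower, with a median of -0.18, against 23.7% higher and 22.7% lower. Over the fits without 1 library 13 to 17 mitotic members were higher under sorbitol, and 13 of 17 mitotic and 12 of 13 S phase calls held under every alternative, those of CCNB2, HMMR, KIF2C, PLK1 and TK1 not among them. S phase members called lower thus outnumbered those called higher in both media. MCM6 had 3922, 5466, 4592 and 3524 in WT Ctr, 2568, 2333, 2621 and 2558 in WNK2- Ctr, 3500, 3400, 3464 and 3604 in WT Sor and 1864, 1697, 2181 and 1825 in WNK2- Sor. Its WNK2- libraries were below the WT libraries of the same medium, with differences of -0.80 (SE 0.11, edgeR adjusted p = 3.31e-06) in isotonic media and -0.88 (SE 0.11, edgeR adjusted p = 4.67e-07) under sorbitol. PCNA was also lower in both media, with differences of -0.78 (SE 0.12, edgeR adjusted p = 1.04e-05) and -0.57 (SE 0.12, edgeR adjusted p = 0.00034), and had 10773 to 12522 in WNK2- Ctr against 15587 to 25809 in WT Ctr. POLA1, the catalytic subunit of the priming polymerase, had 2161, 2124, 2238 and 2070 in WT Sor and 1401, 1316, 1467 and 1492 in WNK2- Sor, -0.60 (SE 0.10, edgeR adjusted p = 2.07e-05) under sorbitol and -0.48 in isotonic media. CDC45 (-0.40 and -0.30), MCM2 (-0.31 and -0.39), CCNE2 (-0.50 and -0.59) and E2F1 (-0.39 and -0.59) were called lower in both media too. The GC and length correction left the sorbitol values of PCNA at -0.86, MCM2 at -0.22 and E2F1 at -0.34, all still called. In isotonic media E2F1 lost the call without WT Ctr replicate 1 or 4 or WNK2- Ctr replicate 3 or 4, and CCNE2 without WT Ctr replicate 3.

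CDK1 was the mitotic member furthest below WT in both media, with 3943 to 4139 in WNK2- Ctr against 5860 to 8344 in WT Ctr and 2702 to 3557 in WNK2- Sor against 4322 to 4735 in WT Sor, differences of -0.81 (SE 0.10, edgeR adjusted p = 9.53e-07) and -0.57 (SE 0.10, edgeR adjusted p = 8.02e-05). The members higher in WNK2- cells in isotonic media were MKI67, FOXM1, AURKA, POLE and UHRF1. MKI67 reached 14446, 15931, 15918 and 16483 in WNK2- Ctr, all above the WT Ctr libraries, 0.65 (SE 0.14, edgeR adjusted p = 0.00045), and under sorbitol it was higher by 0.49; the GC and length correction left the isotonic value at 0.41, still called. FOXM1 had 2690, 2069, 2361 and 3009 in WT Ctr and 3885, 3331, 3474 and 3584 in WNK2- Ctr, 0.49 (SE 0.10, edgeR adjusted p = 0.000297), and under sorbitol 2134, 2178, 1888 and 1951 in WT Sor and 3110, 3397, 3019 and 3297 in WNK2- Sor, 0.65 (SE 0.10, edgeR adjusted p = 7.59e-06). Its groups did not meet in either medium. AURKA, at 0.20, lost its call without WT Ctr replicate 4 or WNK2- Ctr replicate 1, with no filter on low counts and with only the compared groups. POLE, the leading-strand polymerase, had 3809, 3720, 3853 and 4105 in WT Ctr and 4829, 4884, 5000 and 4962 in WNK2- Ctr, 0.34 (SE 0.07, edgeR adjusted p = 0.000368), which was 0.09 (adjusted p = 0.299) after the GC and length correction. Under sorbitol the smallest p among higher members were those of AURKA, BUB1 and FOXM1. AURKA ranged over 4567 to 4966 in WT Sor and 6258 to 6460 in WNK2- Sor, 0.40 (SE 0.07, edgeR adjusted p = 2.71e-05), or 0.24 after that correction. BUB1 ranged over 1555 to 1692 in WT Sor and 2142 to 2837 in WNK2- Sor, 0.58 (SE 0.10, edgeR adjusted p = 2.98e-05). Up to 40 tested genes nearest to each member on its chromosome were set beside it. Their medians were 0.20 for MCM6, 0.05 for CDK1, 0.13 for PCNA and -0.04 for FOXM1 in isotonic media, against -0.80, -0.81, -0.78 and 0.49 for the members themselves, but 0.32 around MKI67 (itself 0.65), 0.23 around POLE (itself 0.34), -0.37 around CCNE2 (itself -0.50) and -0.42 around AURKB (itself -0.40). Over the 45 members these medians ran from -0.42 to 0.39 in isotonic media, and lay more than 0.2 from 0 around 9 of them. Under sorbitol they ran from -0.60 to 0.47, with 13 members beyond 0.2, among them DLGAP5 (0.47 around it, itself 0.50) and HMMR (0.33 around it, itself 0.46). The part of such shifts in the members' own values was not tested.

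The interaction terms test whether the change with sorbitol differed between cells, and both use the same WT libraries. For transfection, the term is the log2 fold change with sorbitol in WNK2 trans minus that in WT. It was called above 0 in 24 of 25 mitotic members, with a median of 0.99 and a range of 0.20 (CDK1) to 1.51 (TTK), and in 8 of 20 S phase members, while 2 of S phase were called below 0, with a median of 0.18. Over all genes 18.1% were above and 17.4% below, with a median of 0.01. This sign depends on the labels WT Ctr and WNK2 trans Ctr. With these 2 labels exchanged, sorbitol in WNK2 trans would be WNK2 trans Sor against WT Ctr, with medians of -0.33 (mitotic) and -0.34 (S phase). Sorbitol in WT would be WT Sor against WNK2 trans Ctr, with medians of -0.06 and -0.23. The median fall would then be the larger one in WNK2 trans. The member calls numbered 33 to 37 over the 32 alternatives, and S phase members below 0 numbered 4 without WNK2 trans Sor replicate 1 or without WT Ctr replicate 1. BUB1 had 1.40 (SE 0.14, edgeR adjusted p = 2.42e-08), CCNB1 1.12 (SE 0.16, edgeR adjusted p = 4.84e-06) and KIF11 1.06 (SE 0.14, edgeR adjusted p = 2.21e-06). AURKA at 1.05 (SE 0.10, edgeR adjusted p = 4.72e-09) had the smallest p among mitotic members. PLK1 at 0.81 (SE 0.15, edgeR adjusted p = 0.000177), CDC20 at 0.67 (SE 0.17, edgeR adjusted p = 0.00324) and MKI67 at 0.62 (SE 0.19, edgeR adjusted p = 0.0141) were smaller, and MKI67 lost its call without WNK2 trans Sor replicate 3 (0.50, adjusted p = 0.0502). CDK1 was the mitotic member not called, 0.20 (SE 0.15, edgeR adjusted p = 0.323), with a fall under sorbitol in both cells.

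Within S phase the interaction split the list. RRM2 at 1.40 (SE 0.12, edgeR adjusted p = 1.06e-09), MCM10 at 1.32 (SE 0.11, edgeR adjusted p = 2.02e-09), TK1 at 1.16 (SE 0.18, edgeR adjusted p = 2.21e-05) and CDC45 at 0.91 (SE 0.12, edgeR adjusted p = 1.12e-06) lay in the range of the mitotic genes. TYMS at 0.62 (SE 0.19, edgeR adjusted p = 0.0134) was also above 0, as were GINS1 (0.65), GINS2 (0.55) and RRM1 (0.48), so that the 4 genes of nucleotide supply were called, though RRM1 not after the GC and length correction (0.24, adjusted p = 0.0735), which also took GINS1 to 0.40 and TK1 to 1.89. MCM6 at -0.50 (SE 0.16, edgeR adjusted p = 0.0167) and MCM2 at -0.43 (SE 0.12, edgeR adjusted p = 0.00916) were below 0, and MCM2 was at -0.03 (adjusted p = 0.849) after the GC and length correction. PCNA (0.07, adjusted p = 0.78), E2F1 (-0.38, adjusted p = 0.154), CCNE2 (-0.33, adjusted p = 0.253) and POLE (0.09, adjusted p = 0.514) were not called by edgeR. With the same correction E2F1 was called above 0 (0.29, adjusted p = 0.00769) and CCNE2 below it (-0.59, adjusted p = 0.00229). None of the 6 ring subunits was called above 0 in the transfection term. Of the 8 S phase members above 0, 3 hold E2F letters in their promoter window, GINS1, GINS2 and TYMS, and of the 9 others with a promoter in the table all 9 hold them, as in the MCM6, PCNA and E2F1 stretches printed above and unlike that of MCM10. This count was made after the calls were known and has no test. It takes in exact letters only. CDC45, counted as holding none, has TTTGGCGG shortly before its start, so the count does not show that such members lack E2F sites.

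For genotype, the term is the log2 fold change with sorbitol in WNK2- minus that in WT. It was called above 0 in 5 mitotic members (BUB1, CCNB1, DLGAP5, KIF2C and TTK) and 1 of S phase (MCM10), and below 0 in none, with medians of 0.27 and 0.12, against 3.99% above and 4.66% below over all genes. BUB1 had 0.54 (SE 0.14, edgeR adjusted p = 0.0163), DLGAP5 0.51 (SE 0.14, edgeR adjusted p = 0.0249) and the spindle motor KIF2C 0.57 (SE 0.17, edgeR adjusted p = 0.0343). CCNB1 had 0.52 (SE 0.16, edgeR adjusted p = 0.0395). The fall with sorbitol was larger in WT than in WNK2- for these 4 genes, as -0.83 against -0.29 for BUB1. This order depends on the libraries labelled WT Ctr. From WNK2 trans Ctr to WT Sor the means went from 1669 to 1630 (BUB1), 4179 to 3856 (CCNB1), 2548 to 2216 (DLGAP5) and 1111 to 1042 (KIF2C). From WNK2- Ctr to WNK2- Sor they went from 2987 to 2435, 6573 to 5079, 4448 to 3133 and 1616 to 1321. With WNK2 trans Ctr in place of WT Ctr the fall was thus larger in WNK2-. The count of 6 was 0 without WNK2- Sor replicate 3 or with no filter on low counts, 1 to 3 without WNK2- Ctr replicate 2, 3 or 4, WNK2- Sor replicate 1 or 4, WT Ctr replicate 2 or 3 or any 1 WT Sor library, and 11 with DESeq2. None of the 6 calls held under all alternatives. The terms of the other representatives ran from -0.19 (E2F1) to 0.39 (CDC20), and RRM2 lay at the threshold, 0.35 (SE 0.12, edgeR adjusted p = 0.0559).

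**Figure D5:**
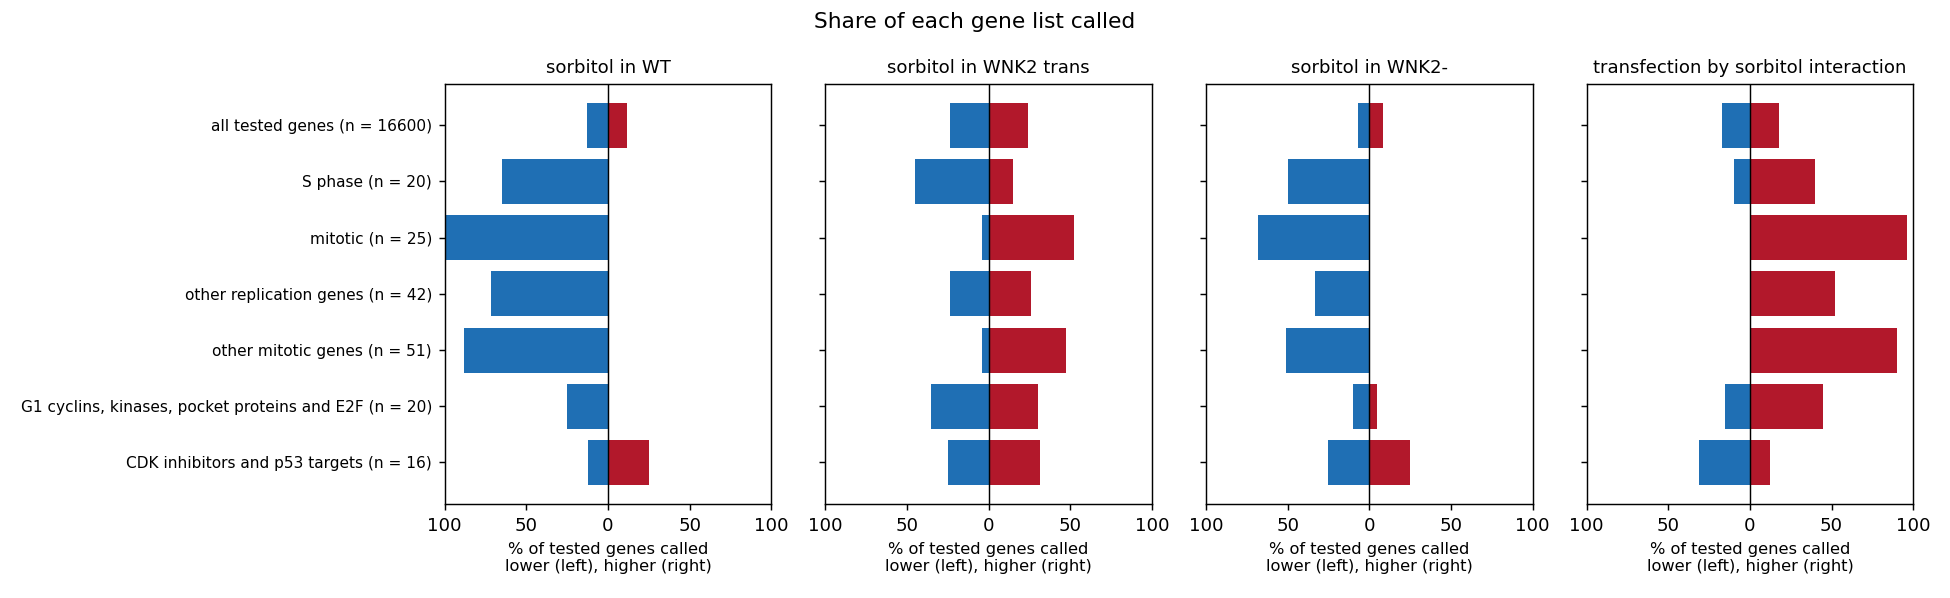
Share of tested genes (x axes, in %) called lower (blue, left) and higher (red, right) by edgeR in 4 comparisons, for all genes, the members by phase and 4 further lists (y axis, with the number tested). Other mitotic genes follow the directions of the mitotic members, as with 88.2% of them lower for sorbitol in WT, while other replication genes split about evenly for sorbitol in WNK2 trans (26.2% higher, 23.8% lower).

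Further genes of the cell cycle, from lists written with earlier results of these data known, were counted beside the members. The single genes named from these lists were not picked by a set rule, and several had the largest changes of their list. Of 51 other mitotic genes tested, 45 were called lower with sorbitol in WT (median -0.59), 24 higher and 2 lower in WNK2 trans (0.30), 26 lower in WNK2- (-0.36), and 46 were above 0 in the transfection interaction (0.93). Over all genes the shares of these 4 directions were 12.7% lower in WT, 24.3% higher in WNK2 trans, 6.64% lower in WNK2- and 18.1% above 0. MAD2L1, of the spindle checkpoint, had -1.10 (SE 0.12, edgeR adjusted p = 2.96e-07) in WT and 0.17 (SE 0.12, edgeR adjusted p = 0.24) in WNK2 trans. The motor KIF4A had -0.70 (SE 0.09, edgeR adjusted p = 2.69e-06) and 0.56 (SE 0.09, edgeR adjusted p = 8.84e-06). The centromeric histone CENPA, in contrast, was lower in WNK2 trans, -0.28 (SE 0.11, edgeR adjusted p = 0.0377). Of 42 other replication genes, 30 were lower with sorbitol in WT (median -0.44), 11 higher and 10 lower in WNK2 trans (0.004), 14 lower in WNK2- (-0.20), and 22 above 0 in the transfection interaction. In WNK2 trans the replication shares, 26.2% higher and 23.8% lower, lay near the 24.3% and 23.7% of all genes. CDC6, which loads the MCM ring, rose by 0.46 (SE 0.09, edgeR adjusted p = 0.000106) in WNK2 trans, while its partner CDT1 was lower, -0.47 (SE 0.19, edgeR adjusted p = 0.0409).

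Upstream of S phase, 5 of 20 G1 cyclins, kinases, pocket proteins and E2F genes were lower and none higher with sorbitol in WT, and 6 were higher and 7 lower in WNK2 trans. As shares these were 25% lower in WT, against 12.7% of all genes, and 30% higher and 35% lower in WNK2 trans, against 24.3% and 23.7%. CCND1 (cyclin D1), which starts the passage through G1, had -0.24 (SE 0.12, edgeR adjusted p = 0.154) in WT and 2.47 (SE 0.13, edgeR adjusted p = 5.81e-14) in WNK2 trans, an interaction of 2.71 (SE 0.17, edgeR adjusted p = 1.1e-11). Its kinases went opposite ways in WNK2 trans, CDK6 at 0.70 (SE 0.18, edgeR adjusted p = 0.00228) and CDK4 at -0.78 (SE 0.16, edgeR adjusted p = 0.000233). LIN9, a subunit of the MuvB complex that binds the CHR element, fell with sorbitol in WT, -0.62 (SE 0.11, edgeR adjusted p = 0.000298), and rose in WNK2 trans, 0.46 (SE 0.11, edgeR adjusted p = 0.00173). MYBL2, its partner, was lower in all 3 cells, at -0.51, -0.32 and -0.93. Among 16 CDK inhibitors and p53 targets, 4 were higher and 2 lower with sorbitol in WT, 5 and 4 in WNK2 trans, and 4 and 4 in WNK2-. As shares these were 25% higher and 12.5% lower in WT against 11.4% and 12.7% of all genes, 31.2% and 25% in WNK2 trans against 24.3% and 23.7%, and 25% and 25% in WNK2- against 8.25% and 6.64%. CDKN1A (p21), the inhibitor that p53 induces, rose in WT, 0.93 (SE 0.16, edgeR adjusted p = 0.000217), and in WNK2-, 0.90 (SE 0.16, edgeR adjusted p = 0.000356), and had 0.37 (SE 0.16, edgeR adjusted p = 0.0603) in WNK2 trans. CDKN1B (p27) fell in WNK2 trans, -1.09 (SE 0.09, edgeR adjusted p = 3.28e-10), as did CDKN1C (p57), -1.82 (SE 0.18, edgeR adjusted p = 1e-08), and neither was called in WT by edgeR (-0.20, adjusted p = 0.0932 and -0.02, adjusted p = 0.938).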

How the data were processed

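RNA-seq read counts per gene, in 24 libraries of T/C-28a2 cells in 6 groups of 4, were analysed. The counts were deposited by the authors as raw whole numbers for 62703 Ensembl identifiers, 1 table per library. The labels' processing notes list FastQC 0.11.9, HISAT2 2.2.1, HTSeq 2.0.2, DESeq2 1.38.3 and GRCh38, while the study's methods give other versions of HTSeq and DESeq2. The annotation release, the strand setting and the overlap mode are not given in the sources used here. Total counts per library ran from 14153002 to 25664619, which sets the precision of low genes, and intervals from counting error alone are not given since replicate spread is used.

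Symbols and positions were joined by identifier (62625 with a symbol, 58279 with a GENCODE 29 position on GRCh38). In R 4.3.3, edgeR 4.0.16 was used with TMM factors, filterByExpr (minimum count 10, minimum total 15; 16600 genes left), 1 fit of 6 group means over all 24 libraries and quasi-likelihood tests. Benjamini-Hochberg adjustment ran over all genes of a comparison, with a threshold of 0.05. The SE of a log2 fold change is its size over the square root of F. The script was tested on simulated data. No 2 libraries of a group agreed within sampling noise. The groups differed in spread, while the fit used 1 estimate of it for all 6 groups. Chi-square per degree of freedom between 2 libraries, which grows as they differ, was 2.22 to 4.81 in WT Sor. It was 17.1 to 55.8 in WT Ctr and 11.4 to 62.3 in WNK2 trans Sor. Alternatives were DESeq2 1.42.0, RLE or upper-quartile factors, no filter, thinning to the smallest total, a correction for GC content and length, the replicate number as a block, only the compared groups, and each library left out. Named members are 14 representatives of the roles and, per comparison, up to 3 members with the smallest p in each direction. Others are named where their own call, level or position is described. Genes named from the further lists followed no such rule, and several had the largest changes of their list. The members, the lists and the roles were chosen with earlier results of these data known. The promoter table used, made from RefSeq on GRCh38.p14, matched 38 of the 47 members; MCM4, MCM5, CCNE2, FOXM1, AURKA, TTK, TPX2, BIRC5 and UBE2C had no match in it.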

Additional observations from a re-analysis of the deposited data

Results flagged for a closer look

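In 3 of the 84 groups of 4 libraries tested over the 14 representatives and 6 groups, 1 library stood far from the other three by the ratio of its gap to the whole range of the group, where chance alone gives about 1 in 20. In CCNE2 the lowest WT Sor library, replicate 3 with a normalised read count of 388, had a ratio of 0.989. In PLK1 the highest WNK2- Ctr library, replicate 1 with 6158 against 5000 in the next, had a ratio of 0.831. In BUB1 the lowest WNK2 trans Ctr library, replicate 3 with 1505 against 1718 in the next, had a ratio of 0.931.

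Among the representatives, the change with sorbitol differed between WNK2 trans and WT cells by the interaction test of edgeR in 10 genes. On the log2 scale the difference, WNK2 trans minus WT, was -0.43 in MCM2, 0.91 in CDC45, 0.67 in CDC20, 1.12 in CCNB1, 1.06 in KIF11, 0.62 in MKI67, 0.81 in PLK1, 1.40 in BUB1, 1.40 in RRM2 and 0.62 in TYMS. It differed between WNK2- and WT cells in CCNB1, by 0.52, and in BUB1, by 0.54. These terms draw on the libraries labelled WT Ctr, WT Sor or WNK2 trans Ctr, whose labels the WNK2 reads put in doubt.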

How the results depend on the processing

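The alternatives were 8 other settings and 24 fits without 1 library each. Over the fits without 1 library the number of members called was 34 to 39 for sorbitol in WT, 23 to 28 in WNK2 trans and 20 to 31 in WNK2-, 17 to 21 for WNK2- against WT in isotonic media and 26 to 32 under sorbitol, 26 to 32 for WNK2 trans against WT in isotonic media and 16 to 26 under sorbitol, 7 to 13 for WT Sor against WNK2 trans Ctr, 23 to 27 for WNK2 trans Sor against WT Ctr, 33 to 37 for the transfection interaction and 0 to 9 for the genotype interaction. The genotype count of 6 was 11 with DESeq2, 10 with the GC and length correction and 0 with no filter on low counts. For WNK2 trans Sor against WT Ctr 26 members became 43 with the GC and length correction and 14 with only the compared groups, and for WT Sor against WNK2 trans Ctr 9 became 22 with that correction. Fewer libraries or more genes in the test are part of some of these settings by construction, and for the others the cause was not tested. Log2 values changed sign with the GC and length correction for sorbitol in WNK2 trans in CCNB1 (-0.077), CDC20 (0.017), MKI67 (-0.021) and E2F1 (0.062), for sorbitol in WT in E2F1 (-0.23), for sorbitol in WNK2- in TYMS (-0.11), for WNK2 trans against WT under sorbitol in E2F1 (0.04), for the transfection interaction in CDK1 (-0.077), E2F1 (0.295) and PCNA (-0.26), and for the genotype interaction in E2F1 (0.097) and MCM2 (0.09). Without 1 library the sign changed for CDC20 with sorbitol in WNK2 trans (-0.175 to 0.008, above 0 without WNK2 trans Ctr replicate 3), E2F1 with sorbitol in WT (-0.02 without WT Ctr replicate 2, up to 0.171), TYMS with sorbitol in WNK2- (-0.014 without WNK2- Ctr replicate 3 and -0.013 without WNK2- Sor replicate 3, up to 0.069) and PCNA in the transfection interaction (-0.083 without WT Ctr replicate 2 and -0.006 without WNK2 trans Ctr replicate 1, up to 0.189). With the replicate number as a block, the members called were 37 for sorbitol in WT, 27 in WNK2 trans, 25 in WNK2-, 34 for the transfection interaction and 4 for the genotype interaction. Deviations from the group mean were correlated between libraries of different groups. With the same number the median was 0.01 over 60 pairs (-0.287 to 0.458). With different numbers it was 0.001 over 180 pairs (-0.317 to 0.395). The numbers were not taken as pairs in the main fit, and these medians cannot tell whether some groups share a day or batch. NUSAP1 and PRC1 had too few reads to be tested, and the cause was not tested.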
